A study of Homo sapiens with 16 samples.

Results

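The transglutaminases TGM1, TGM2, TGM3, TGM4 and TGM5 were followed on the arrays of a study of gliadin peptides in Caco-2 cells. They were chosen by gene name, with every probe of the array that carries 1 of these 5 names and is no control, and they are 5 of 30982 names on the array. They are measured by 7 of its 41000 probes, each printed on a single spot. Caco-2 is an established human colon carcinoma line used as a model of the intestinal epithelium. Undifferentiated cells were stimulated for 6 h in minimum essential medium with 1% fetal calf serum. The MED-CTL cells received this medium alone. The PT-G cells received gliadin, the alcohol-soluble wheat protein fraction, digested with pepsin and trypsin. The PT cells received the same enzyme preparation without any substrate, the p31-43 cells a synthetic gliadin peptide at 150 µg/ml. In PT-G and PT the enzymes had been inactivated by heat after the digestion, which the study checked with a trypsin substrate. Each condition has 4 single-colour arrays, 16 in all, and the study ran 4 independent experiments with cells 1-2 passages apart. All cells were detached with trypsin-EDTA before RNA extraction, and the line was grown without the fibroblasts and immune cells that surround the epithelium in the gut.

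Transglutaminases are calcium-dependent enzymes that join the side chain of a glutamine to that of a lysine, or to a free amine, and so cross-link proteins. Where no amine is at hand they turn the glutamine into glutamate. TGM2, tissue transglutaminase, does this to gliadin peptides, which then bind better to the HLA-DQ molecules that predispose to coeliac disease, and it is the target of the autoantibodies of that disease. TGM1 and TGM5 are enzymes of the epidermis that build the cornified envelope, and so is TGM3, the autoantigen of dermatitis herpetiformis. TGM4 is the prostate enzyme.

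Of the 5 genes, TGM1 and TGM2 gave a signal well above background on all 16 arrays, with 3 probes. TGM3, TGM4 and TGM5 were at or near background in every condition. With limma, none of the 7 probes reached the study's threshold, a nominal p under 0.01, in any of the 4 comparisons. This threshold was reached by 3.44% of the 40982 probes tested for PT-G against MED-CTL, by 3.64% for PT against MED-CTL, by 0.388% for p31-43 against MED-CTL and by 0.0903% for PT-G against PT. None of the 7 had an adjusted p under 0.05 either, which 0.944% of all probes had for PT-G, 0.82% for PT, and none for p31-43 or for PT-G against PT. At a nominal p under 0.05 there was 1 probe of the 7, in 1 comparison, a TGM2 probe that was lower under PT-G. Of all probes 7.98% lay under 0.05 in that comparison.

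The arrays lay on 5 glass slides and in 4 runs of 1 array per condition, scanned in 2 periods. Arrays of a run share a number in the scanner's names, and whether a run is an independent experiment of the study is not stated. Median spot intensities ranged from 153 to 410 over a local background of 48 to 65, and between 27660 and 33947 spots per array were well above background. All 11 intestinal epithelial markers, KRT8, CDH1 and VIL1 among them, were well above background on all 16 arrays. Some markers of other cells were well above background on all 16 arrays too: 4 of 6 of fibroblasts (COL1A1, COL3A1, LUM and PDGFRB), 3 of 7 of leukocytes (CD3E, CD14 and CD68), 1 of 5 of endothelium (PECAM1), 3 of 6 of keratinocytes (KRT14, KRT10 and DSC3) and 3 of 5 of prostate. Markers at background on every array were PTPRC and MS4A1 of leukocytes, CDH5 and TEK of endothelium, COL1A2 of fibroblasts, and KRT1 and KRT5 of keratinocytes. All arrays are of a single cell line, so these markers do not give numbers of other cell types. Fewer Caco-2 cells that express a marker and less of its RNA per cell cannot be told apart on these arrays. The source of the signals was not tested.

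TGM2 has 2 probes, which the array's annotation assigns to different transcripts of the gene. Probe A_32_P86763 carries the accession of transcript variant 1, the long form, which encodes the full-length enzyme. Probe A_24_P923251 carries that of variant 2, the short form, whose protein has a different and shorter end. Both lie on the minus strand of chromosome 20, the long-variant probe at 36191267 to 36191326 and the short-variant probe at 36199860 to 36199919, so 8593 bases apart. The TGM1 probe A_23_P65618 lies at 23788291 to 23788350 on the minus strand of chromosome 14. The build of these positions is not given in the sources used here, and 6 of the 7 probes fall outside their gene's span in GRCh38, so exon and UTR positions were not assigned. Levels are log2 intensities of each probe, which can be compared between arrays but not between probes.

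The short-variant TGM2 probe was brightest in medium and with p31-43. The 4 MED-CTL arrays, replicates 1 to 4, had log2 intensities of 12.73, 13.28, 13.09 and 12.73. The 4 p31-43 arrays had 13.30, 12.67, 12.81 and 13.03. These ranges lay almost on top of each other. The PT arrays had 12.65, 12.21, 12.80 and 12.78. The PT-G arrays had 12.81, 12.50, 12.69 and 12.12. Under PT-G 3 of the 4 arrays lay below every MED-CTL array, while the PT-G array at 12.81 lay within the MED-CTL range, so the groups overlapped. By mean, p31-43 and MED-CTL stood first at 12.95 ± 0.27 and 12.96 ± 0.27 (SD, n = 4), then PT at 12.61 ± 0.27 and PT-G at 12.53 ± 0.30.

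Under PT-G this probe was 0.43 lower on the log2 scale than in MED-CTL (SE 0.19, 95% interval −0.83 to −0.02, limma, adjusted p = 0.577 at a nominal p of 0.0409). That is a level of 0.744 times the control, with an interval from 0.562 to 0.986. Within each run the PT-G array was the lower of the pair, by 0.46, 0.23, 0.41 and 0.61 in runs 1 to 4, so in 4 of 4 runs. The TGM5 probe, at background, was likewise lower in 4 of 4 runs under PT and under p31-43. The share of all probes with such agreement was not counted. With the run as a block in the model, limma gave a nominal p of 0.0109 (adjusted p = 0.115), where 9.16% of all probes reached 0.01. When the slide took the place of the run, the nominal p was 0.00908 (limma, adjusted p = 0.0768), past the threshold, as for 12.2% of all probes. PT-G replicate 4, at 12.12, was the lowest of all 16 arrays, and without it the difference was −0.29, with a nominal p above 0.05.

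Under PT, the digest without gliadin, the difference was −0.35 (SE 0.19, 95% interval −0.75 to 0.06, limma, adjusted p = 0.668). The PT array was lower in 3 of 4 runs, by 0.63, 0.51 and 0.29, and 0.05 higher in run 4. Without PT replicate 2, the difference was −0.22. PT-G and PT share the MED-CTL arrays, so their differences are not independent. Compared directly, PT-G and PT differed by −0.08 (95% interval −0.48 to 0.33, limma, adjusted p = 1.00), with the PT-G array lower in 2 of 4 runs. For p31-43 the estimate was −0.002 (95% interval −0.41 to 0.40, limma, adjusted p = 1.00), and 2 of 4 runs were lower. These intervals do not show that the conditions were alike, since they still hold differences down to −0.48 and −0.41.

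**Figure D1:**
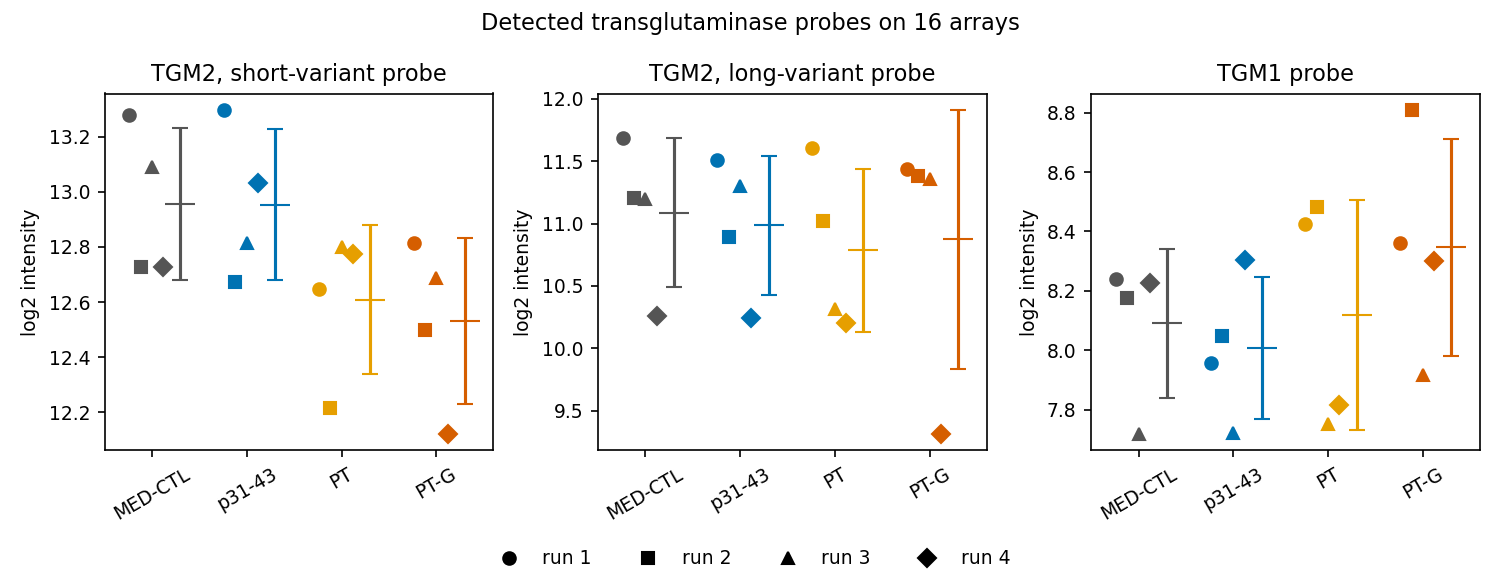
Log2 intensity of the 3 transglutaminase probes that were well above background on all 16 arrays, by condition, with 1 point per array, its shape giving the run, and the mean ± SD (n = 4) beside the points. For the short-variant TGM2 probe the PT and PT-G means, 12.61 and 12.53, lie below those of MED-CTL and p31-43 with overlapping points; for the long-variant probe the run 4 arrays are low in every condition.

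The long-variant TGM2 probe varied with the slide, and little with the condition. The MED-CTL arrays had 11.20, 11.69, 11.20 and 10.26, and the p31-43 arrays 11.51, 10.89, 11.30 and 10.25. The PT arrays had 11.60, 11.02, 10.32 and 10.20, and the PT-G arrays 11.44, 11.38, 11.36 and 9.31. Every condition thus held arrays near 11 and at least 1 at 10.32 or below, and the groups overlapped fully. Over 16 arrays the level spanned a 5.19-fold range, against 2.26-fold for the short-variant probe and 2.13-fold for TGM1.

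Between conditions the long-variant probe differed by −0.21 under PT-G (SE 0.49, limma, adjusted p = 1.00) and by −0.30 under PT (SE 0.49, limma, adjusted p = 0.912). It differed by −0.10 under p31-43 and by 0.09 between PT-G and PT, both with the same SE. Against MED-CTL the PT array was the lower in 4 of 4 runs, the p31-43 array in 3 and the PT-G array in 2. The 95% interval for PT-G ran from −1.26 to 0.83, so a large change in either direction could have been missed. The within-group SD was 0.74, which is at the 96.6th percentile of the 24690 probes detected and unmarked on all arrays, whose median SD was 0.29. Condition took 3.07% of the variation of this probe and slide 88.8%, against medians of 14.1% and 68.7% over those probes. For the short-variant probe the condition took 39.2% and the slide 44.3%.

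The low values were those of slides 4 and 5. Their 5 arrays, PT replicate 3 and replicate 4 of every condition, lay between 9.31 and 10.32. The 11 arrays of slides 1 to 3 lay between 10.89 and 11.69, without overlap. The mean difference was −1.26, or 2.39-fold lower, and since this division was made after the values were seen, it is a description. Among the 24690 detected probes, 4.98% were likewise apart and lower on slides 4 and 5, and 4.01% apart and higher. Of the 5 arrays 4 make up run 4, and there slide and run cannot be told apart. In run 3 the PT array, on slide 4, lay at 10.32 and the other 3, on slide 3, between 11.20 and 11.36, and there slide and condition cannot be told apart. In a model with a term for the slide, the differences of the long-variant probe were −0.21 for PT-G, −0.05 for PT, −0.20 for p31-43 and −0.17 for PT-G against PT. None of these reached a nominal p under 0.01, which 12.2%, 10.6%, 3.73% and 0.364% of all probes did in these models.

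**Figure D2:**
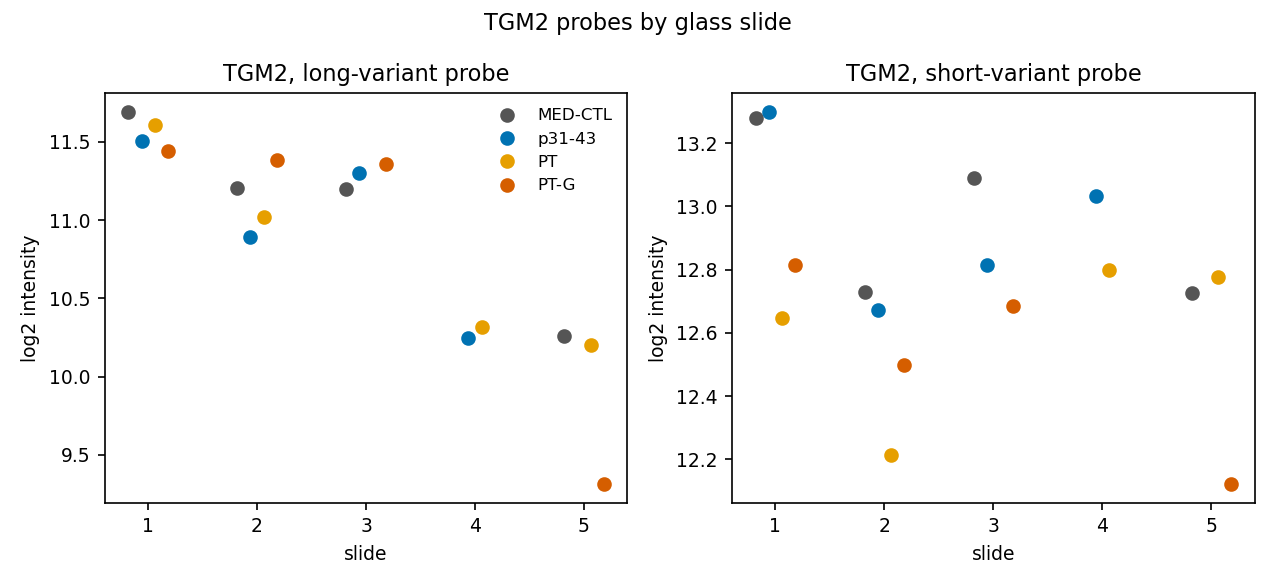
Log2 intensity of the long-variant (left) and short-variant (right) TGM2 probes by glass slide, 1 point per array, coloured by condition. The long-variant probe lies between 9.31 and 10.32 on slides 4 and 5 and between 10.89 and 11.69 on slides 1 to 3; the short-variant probe has no such step.

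Between the 2 scan periods, which hold 2 runs each, the long-variant probe averaged 11.34 ± 0.28 (SD, n = 8 arrays) in the earlier and 10.53 ± 0.71 in the later one. The difference was −0.82. The 3 arrays of slide 3 belong to the later period, and at 11.20 to 11.36 they lay inside the 10.89 to 11.69 of the earlier one. For the low arrays slide cannot be told apart from run or condition, as given above, and the source of their values was not tested. The short-variant probe differed by −0.01 between the periods, and the gap between the 2 probes, long minus short, by −0.80. With 2 runs in each period these are descriptions without a test. Between conditions the gap changed by 0.21 for PT-G, 0.05 for PT, −0.10 for p31-43 and 0.16 for PT-G against PT. The exact permutation p of these 4 comparisons lay between 0.6 and 1, and 4 arrays against 4 cannot give less than 0.0286. The permutations did not keep arrays within their run or slide. Since the gap differed by −0.80 between the periods, a difference between conditions could have been missed.

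TGM1, the membrane-bound enzyme of keratinocytes, was detected on every array. The MED-CTL arrays had 8.18, 8.24, 7.72 and 8.23, and the p31-43 arrays 7.96, 8.05, 7.72 and 8.30. The PT arrays had 8.43, 8.48, 7.75 and 7.82, and the PT-G arrays 8.36, 8.81, 7.92 and 8.30. In every condition the lowest array was replicate 3, with PT replicate 4 close by. The PT-G mean was the highest, 8.35 ± 0.37 (SD, n = 4), and the groups overlapped.

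Under PT-G TGM1 was 0.26 higher than in MED-CTL (SE 0.21, 95% interval −0.20 to 0.71, limma, adjusted p = 0.983). Without PT-G replicate 2, the highest of the 16 arrays at 8.81, the difference was 0.10, and without PT-G replicate 3 it was 0.40. The PT-G array was the higher in 4 of 4 runs, by 0.12, 0.63, 0.20 and 0.07. Agreement in 4 of 4 runs also occurred for probes at background, and its share over all probes was not counted. A run term brought the adjusted p of limma to 0.402. Under PT the difference was 0.03 (95% interval −0.43 to 0.49) and under p31-43 it was −0.08 (95% interval −0.54 to 0.37). A slide term turned the sign of the PT difference, to −0.07. PT-G and PT differed by 0.23 (95% interval −0.23 to 0.68, limma, adjusted p = 1.00), and by 0.07 without PT-G replicate 2 and 0.37 without PT-G replicate 3. The run took 54.6% of the variation of TGM1, and its mean was 0.34 lower over the 2 runs of the later scan period.

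**Figure D3:**
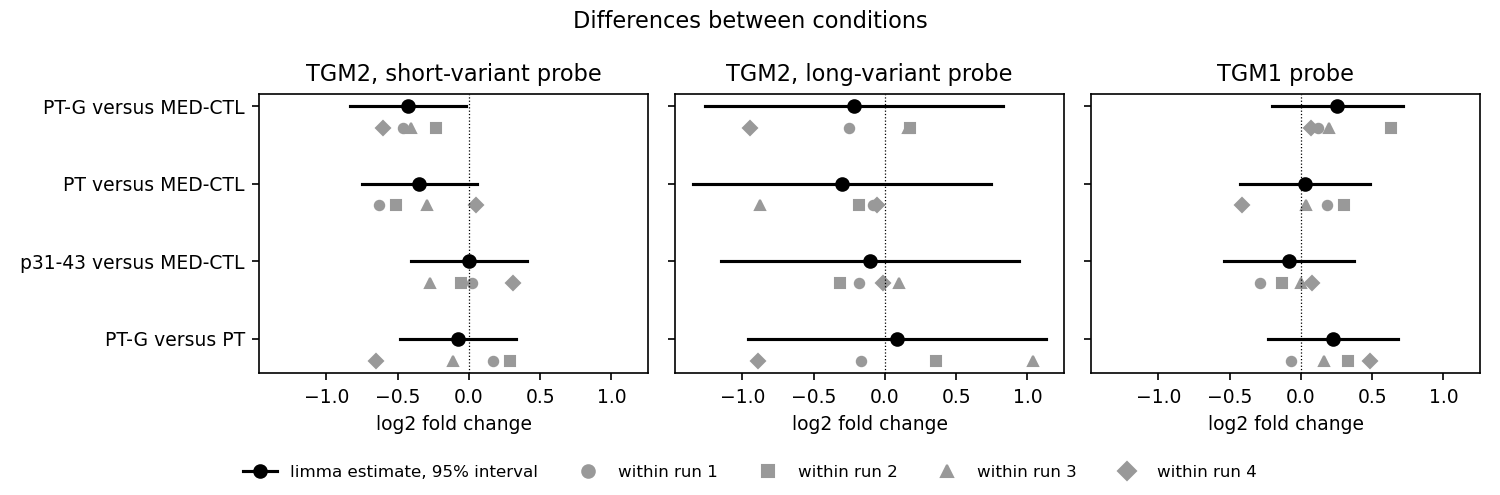
Log2 fold changes of the 3 detected probes in the 4 comparisons: black points and lines are the limma estimates with 95% intervals, grey symbols the differences between the arrays of a single run. The interval of the short-variant TGM2 probe under PT-G, −0.83 to −0.02, is the only 1 of the 12 that does not include 0.

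TGM3, TGM4 and TGM5 had 4 probes, whose 64 values all lay between 5.65 and 6.31. TGM3, the epidermal and hair follicle enzyme, was well above background on 0 of 16 arrays, with values from 5.89 to 6.14. TGM4, the prostate enzyme, has 2 probes. A_23_P41241 was well above background on no array, and A_24_P402238 on 1, PT-G replicate 1, at 6.31. TGM5 was well above background on 1 array, MED-CTL replicate 4, at 6.09, although MED-CTL replicate 2 had a slightly higher value that was not. With both groups at background, differences of these probes are not read as changes. The only values of the 7 probes that did not overlap between groups were those of TGM5 for PT against MED-CTL, 1 of 7, where 5.08% of all probes did not overlap. They ran from 5.84 to 5.95 for PT and from 5.96 to 6.12 for MED-CTL, a gap within the background range. For the other comparisons 0 of 7 were without overlap, where 3.87% (PT-G), 1.39% (p31-43) and 0.632% (PT-G against PT) of all probes were.

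**Figure D4:**
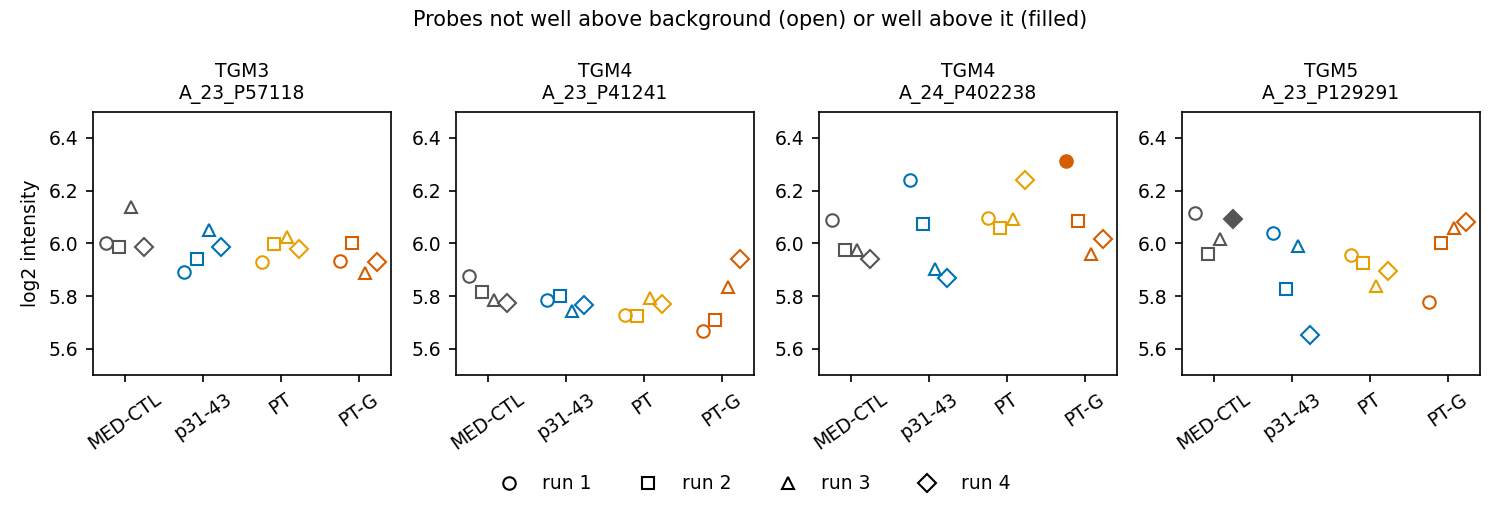
Log2 intensity of the 4 probes of TGM3, TGM4 and TGM5 by condition, 1 point per array, its shape giving the run; filled points were well above background, open points were not. Of the 64 points 2 are filled, and all lie between 5.65 and 6.31.

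The other proteins of the family, listed with the factor XIII subunit F13B, which is not a transglutaminase, gave little more. Of EPB42, the red cell membrane protein that has lost enzyme activity, F13A1 and F13B, the subunits of coagulation factor XIII, and TGM7, none was detected on all 16 arrays. EPB42 and F13B were well above background on 1 array each and F13A1 on 3. TGM7, whose gene lies beside TGM5 on chromosome 15 with no protein-coding gene between them, was well above background on 10 of 16. It is named outside the rule, after its values were seen. Its means ran from 6.41 to 6.46 over the 4 conditions. No member of this list had a nominal p under 0.01 in any comparison.

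Among substrates and partners of the enzymes, calls appeared only in models with a term for replicate number, run or slide. Of 18 cornified envelope proteins measured, which TGM1, TGM3 and TGM5 cross-link in skin, 11 were detected on all 16 arrays and none reached a nominal p under 0.01 without such a term. The median difference of this list was 0.001 for PT-G, −0.06 for PT and −0.06 for p31-43, against −0.006, −0.01 and −0.001 over all probes. The smallest p belonged to EVPL, envoplakin, at −0.48 under p31-43 (SE 0.17, limma, adjusted p = 1.00). CDSN, corneodesmosin, had −0.26 and SPRR2B, a small proline-rich protein, −0.31 in the same comparison. Once replicate numbers were paired in the model, 2 of the 18, EVPL and SPRR2B, reached a nominal p under 0.01 under p31-43, both lower, as did 1.05% of all probes. With the run as the term CDSN joined them, where 1.38% of all probes passed, and with the slide CDSN alone passed (limma, adjusted p = 0.228). SPRR3, another small proline-rich protein, was lower with the slide term, at −0.47 under PT-G and −0.51 under PT (limma, adjusted p = 0.0436 and 0.0463), where 12.2% and 10.6% of all probes passed. Without that term its differences were −0.47 and −0.22 (limma, adjusted p = 0.982 and 0.922).

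Of 17 partners of TGM2 at the cell surface and in the matrix, 15 were detected on all arrays and none reached the threshold in any comparison without a term for the pairing of arrays. ITGA5, the integrin subunit that pairs with ITGB1 as a fibronectin receptor, differed by 0.26 for PT-G and by 0.29 for PT (both SE 0.13, limma, adjusted p = 0.707 and 0.545). PDIA3, a disulphide isomerase that oxidises TGM2, differed by −0.29 under PT-G (SE 0.16, limma, adjusted p = 0.749). This difference passed the nominal threshold with the run term and with the slide term (limma, adjusted p = 0.0289 with the slide). Of all probes 9.16% and 12.2% passed with these terms. PLCD1, a phospholipase that couples to TGM2 as a GTP-binding protein, differed by 0.18 under PT (SE 0.10). With the slide term CTGF, a matrix-associated growth factor, passed under PT at 0.55 (limma, adjusted p = 0.0844), against 0.34 without it. Of all probes 10.6% passed in that model. Medians of the list were −0.02 for PT-G, −0.06 for PT and −0.03 for p31-43.

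Of 17 signals and factors known to induce TGM2 transcription, 3 rose and 1 fell under PT-G at a nominal p under 0.01, 2 rose and 1 fell under PT, and none passed under p31-43 or between PT-G and PT. Over all probes 1.91% rose and 1.52% fell under PT-G, and 1.8% rose and 1.84% fell under PT. TGFBR2, the type II receptor of TGF-beta, averaged 13.20 ± 0.22 on the MED-CTL arrays and 13.10 ± 0.18 on the p31-43 arrays (SD, n = 4). On the PT arrays it averaged 13.82 ± 0.11, and on the PT-G arrays 13.90 ± 0.26. It rose by 0.69 under PT-G (SE 0.14, limma, adjusted p = 0.0309) and by 0.62 under PT (SE 0.14, limma, adjusted p = 0.0580). RARG, a retinoic acid receptor, rose by 0.43 under PT-G (SE 0.13, limma, adjusted p = 0.205), and the PT difference of 0.38 did not pass (limma, adjusted p = 0.292).

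IL6, an inflammatory cytokine, rose by 0.24 under PT-G and 0.23 under PT (SE 0.06, limma, adjusted p = 0.126 and 0.139). Its probe was well above background on only 2 PT-G and 2 PT arrays and on no array of the other 8, so these values lie near the floor. The gene that fell was RXRB, the partner of the retinoic acid receptors, at −0.70 under PT-G and −0.69 under PT (SE 0.23, limma, adjusted p = 0.264 and 0.263). It is named because it makes up that count. The count depended on how the arrays were paired. Under PT-G, 4 rose and 1 fell in each model with a term for replicate number, run or slide, where 7.59%, 9.16% and 12.2% of all probes passed. The added gene was TGFB1, a TGF-beta ligand, which was 0.53 higher under PT-G (limma, adjusted p = 0.456 with no such term and 0.00475 with the slide term). Under PT, where 8.49%, 10.3% and 10.6% of all probes passed, the terms for replicate number and slide gave 4 higher and 1 lower and the run term 4 higher and 3 lower. Under p31-43 the slide term gave 1 lower, EGFR, the receptor of epidermal growth factor, at −0.28 (limma, adjusted p = 0.175), where 3.73% of all probes passed.

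Of 10 retinoid response genes, 2 rose under PT-G and 1 under PT at a nominal p under 0.01, where 1.91% and 1.8% of all probes rose, and none fell. CYP26B1, which breaks down retinoic acid, rose by 0.60 under PT-G (SE 0.16, limma, adjusted p = 0.123). Its PT difference of 0.47 did not pass, at a nominal p of 0.0114 (limma, adjusted p = 0.292), and PT-G and PT differed by 0.14. CRABP2, which carries retinoic acid to its receptors, rose by 0.58 under PT-G and by 0.59 under PT (SE 0.17, limma, adjusted p = 0.193 and 0.177). CYP26A1, the related hydroxylase, differed the other way, by −0.19 under PT-G (limma, adjusted p = 0.564). With a slide term 2 rose and 1, CYP26A1, fell under PT-G, where 12.2% of all probes passed, and 2 rose under PT, where 10.6% did. With a run term 2 rose under both, and 1, RARB, fell under PT, where 9.16% and 10.3% of all probes passed. RARB stands in both lists, and both comparisons share the MED-CTL arrays.

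**Figure D5:**
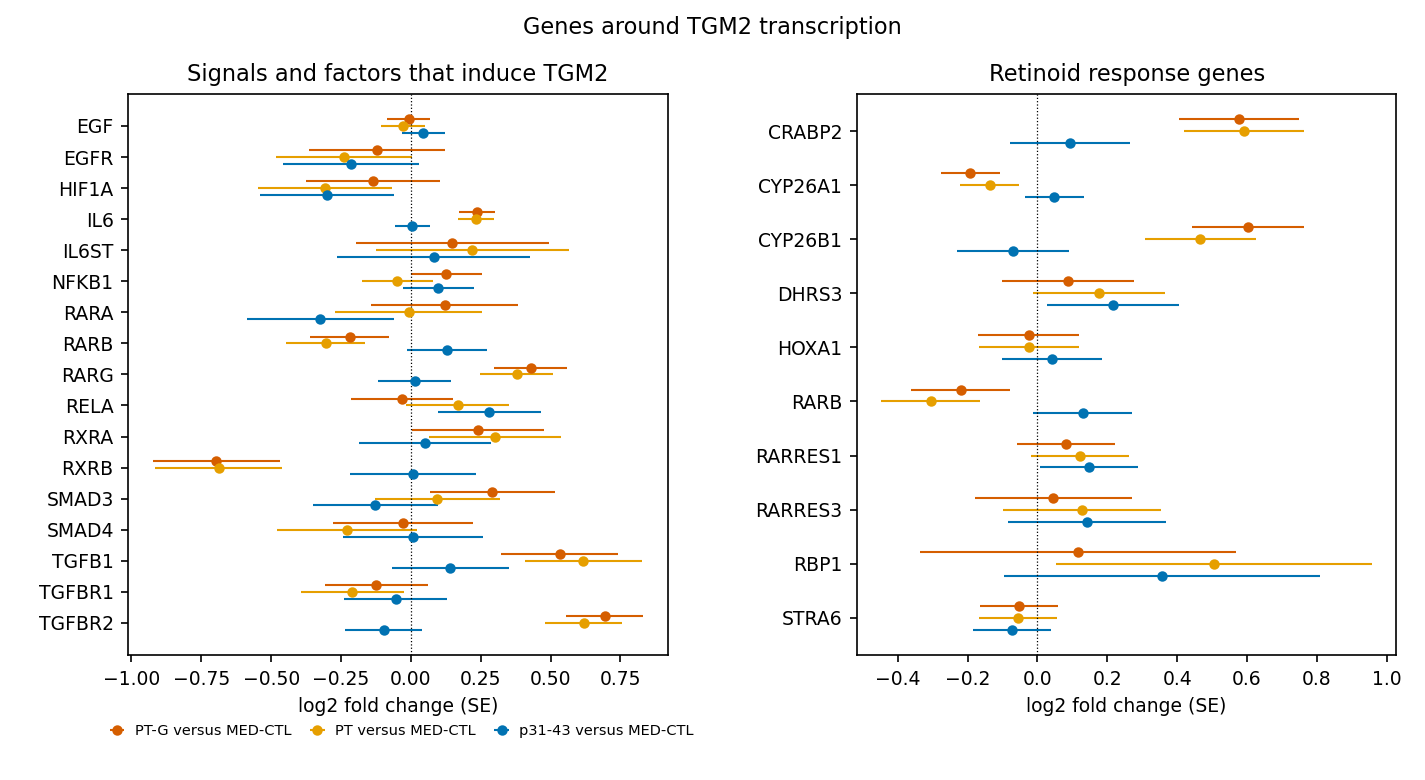
Log2 fold change against MED-CTL (points, with SE bars) of the 17 signals and factors known to induce TGM2 (left) and of 10 retinoid response genes (right), for PT-G, PT and p31-43. TGFBR2 lies at 0.69 for PT-G and 0.62 for PT, RXRB at −0.70 and −0.69, and the p31-43 points of these 2 genes lie within 0.10 of 0.

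Genes that present gliadin or signal beside it in coeliac disease were detected on all arrays in 5 of 10 cases, and none reached the threshold without a term for the pairing of arrays. HLA-DQA1, a chain of the presenting HLA-DQ molecule, was well above background on 2 of 16 arrays, and CIITA, the master regulator of these genes, on 13. MICA, a stress ligand read by intraepithelial lymphocytes, differed by 0.63 for PT (SE 0.28) and by 0.43 for PT-G, and limma gave adjusted p-values of 0.509 and 0.881. A term for replicate number, run or slide brought its nominal p under 0.01 for PT, where 8.49%, 10.3% and 10.6% of all probes passed.

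Markers of other cells were read the same way. Of 6 keratinocyte markers, the cell type of TGM1, 3 were detected on all arrays. KRT14 was 0.51 lower under p31-43 (SE 0.10, limma, adjusted p = 1.00) and 0.35 lower under PT (limma, adjusted p = 0.190). Each of these passed the nominal threshold. Summed linear intensities of the 6 ran from 9950 to 34058 on the MED-CTL arrays and from 16764 to 37046 on the p31-43 arrays. On the PT arrays they ran from 20937 to 30654, and on the PT-G arrays from 9885 to 35817. These sums mainly follow KRT10, which averaged a log2 intensity of 14.42 on the MED-CTL arrays, where KRT14 averaged 7.74. The part of the keratinocyte markers in the TGM1 values was not tested. None of the 5 prostate, 6 fibroblast, 5 endothelial or 7 leukocyte markers passed without a term for the pairing of arrays. With a term for replicate number, run or slide, COL3A1, a fibrillar collagen, was lower under PT-G and PT, with −0.45 and −0.53 in the slide model (limma, adjusted p = 0.0146 and 0.0116). PDGFRB, a growth factor receptor of mesenchymal cells, was higher under both with the run or slide term, with 0.51 and 0.45 in the slide model (limma, adjusted p = 0.00714 and 0.0218). With the slide term MSMB of the prostate list was 0.44 higher under PT-G (limma, adjusted p = 0.0744). Of 11 epithelial markers, KRT20, a keratin of differentiated intestinal cells, rose by 0.63 under PT-G (SE 0.12, limma, adjusted p = 0.0251) and by 0.50 under PT (limma, adjusted p = 0.0884). CDX2, a transcription factor of the intestinal epithelium, differed the other way, by −0.72 and −0.64 (SE 0.48, limma, adjusted p = 0.899 and 0.797). It passed under PT-G with each of the 3 terms (limma, adjusted p = 0.00798 with the slide) and under PT with those for replicate number and run. VIL1, villin of the brush border, was lower under PT with the run term and under p31-43 with the slide term. Without such a term 3.44%, 3.64% and 0.388% of all probes passed under PT-G, PT and p31-43. With the terms for replicate number, run and slide, 7.59%, 9.16% and 12.2% passed under PT-G. For PT these shares were 8.49%, 10.3% and 10.6%, and for p31-43 1.05%, 1.38% and 3.73%. The part of the markers in the transglutaminase values was not tested.

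Genes whose pattern over the 16 arrays was most like that of TGM1 and TGM2 were sought among 11029 named genes detected on all arrays. These values are descriptions without a test, since the 16 arrays share slides, runs and passages. For the short-variant TGM2 probe the highest Pearson correlations were those of TMEM25 (0.89), KARCA1 (now KLHDC9, 0.88), CCNB2 (0.88), SLC6A4 (0.87) and PHLDB2 (0.87). MALL, CENTD3 (now ARAP3) and LHX6 ran most opposite, from −0.89 to −0.87. With each condition's mean removed these 8 still lay at 0.79 or more in size. For TGM1 the highest were CLDN15 (0.93), a claudin of the gut epithelium, MPP3 (0.93), ABCA2 (0.91), GSDML (now GSDMB, 0.90) and MEGF6 (0.89). The lowest were ARL6IP5, MAP2K6 and PSEN2, from −0.84 to −0.81. The long-variant TGM2 probe, added after its values were seen, was nearest to SRCAP (0.98) and TXNL4B (0.96), and most opposite to FBXL4 (−0.97).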

How the data were processed

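Each of 16 RNA samples was hybridised to 1 single-colour Agilent array and read with Feature Extraction 9.5.3.1. The authors deposited linear spot intensities, unnormalized, with columns that mark control spots, outliers and signals well above background, and a table of log2 values. Quantile normalization of log2 median foreground intensities over all spots matched that table within 5e-09. Here 1639 control spots were dropped from 45015 and log2 median intensities of the other 43376 were quantile normalized; the scaling and the lack of a background correction follow the study's methods. Leaving out 1774 outlier-marked spots and averaging spots per probe were added here, and the probe re-annotation that the methods name was not repeated. Of 41000 probes, 18 had fewer than 3 arrays in a group and were left out. The other 40982 were tested in limma 3.58.1 (R 4.3.3), all 4 conditions in 1 model, on 12 residual plus 1.88 prior degrees of freedom. P-values were adjusted by Benjamini-Hochberg within each comparison. The code was tested on simulated data. Precision is limited by 4 arrays per condition.

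The genes, lists and comparisons were chosen with earlier results of these data known. Every transglutaminase probe is named, then of each list the 3 genes with the smallest nominal p (brightest probe), and the 5 most and 3 least correlated genes. Other list genes that passed only with a block, and markers named for their detection, were named after their values were seen. RefSeq (GRCh38.p14) gave current names, gene spans and gene order. TGM6, SPRR2A and TCHH were not found by name. Replicate numbers paired arrays for PT-G and p31-43 against MED-CTL, where deviations from group means correlated at 0.440 to 0.888 and 0.297 to 0.778, but not for PT (−0.0288 to 0.455). The numbers come from the sample titles. By run, read from the scanner's names for the arrays, MED-CTL replicates 1 and 2 change places. Paired by run, the correlations were 0.684 to 0.888 for PT-G, 0.594 to 0.778 for p31-43 and −0.0288 to 0.694 for PT. The block by replicate number thus pairs MED-CTL replicates 1 and 2 with arrays of another run. Alternatives were other background corrections and scalings, the deposited table, a filter on dim probes, marked spots kept, blocks, array weights (statmod 1.5.0), an intensity trend, only the 2 groups compared, and leaving out each array. The run block was added after the data were seen.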

Additional observations from a re-analysis of the deposited data

Results flagged for a closer look

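In the 28 groups of 4 arrays, 7 probes in 4 conditions, a single array stood apart from the other 3 by Dixon's test in 3, where chance gives about 1 in 20. For the long-variant TGM2 probe PT-G replicate 4 lay at 9.31, with the other 3 PT-G arrays between 11.36 and 11.44. For TGM1 MED-CTL replicate 3 lay at 7.72, with the others between 8.18 and 8.24. For TGM3 MED-CTL replicate 3 lay at 6.14, with the others between 5.99 and 6.00, all 4 at background. Without PT-G replicate 4 the PT-G difference of the long-variant TGM2 probe was 0.31 in place of −0.21. The causes were not tested.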

How the results depend on the processing

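Of 852 log2 fold changes of the 7 probes under 31 alternatives, 808 kept their direction and their side of a nominal p of 0.01. The short-variant TGM2 probe under PT-G was lower in all 31, from −0.52 without PT-G replicate 1 to −0.29 without PT-G replicate 4. The call appeared in 1 alternative: with the slide as a block this difference was −0.43 with a nominal p of 0.00908 (limma), and the count of transglutaminase probes past the threshold went from 0 to 1. The cause was not tested. Signs changed for 43 differences, all of them without a call. For the short-variant probe under p31-43 the difference became 0.10 with median scaling, 0.0011 in the deposited table and 0.0064 with array weights, and leaving out single arrays gave −0.12 to 0.11. Its PT-G against PT difference was 0.13 with array weights and −0.21 to 0.058 without single arrays. Its PT difference stayed negative, from −0.42 to −0.22 without single arrays. The long-variant probe under p31-43 was 0.0049 with median scaling and −0.38 to 0.14 without single arrays. For PT-G against PT it was −0.17 when the slide was the block and −0.11 to 0.61 without single arrays, and under PT-G −0.49 to 0.31. TGM1 under PT was −0.026 with the scan date as a block, −0.066 when the slide was the block, and −0.10 to 0.15 without single arrays; under p31-43 it was −0.21 to 0.012. Among probes at background, TGM4 A_23_P41241 changed sign with the background-subtracted signal (0.16 for PT-G, 0.39 for PT, −0.23 for PT-G against PT), normexp (0.045 for PT-G) and array weights (−0.022 for PT-G against PT). TGM4 A_24_P402238 did with median scaling (−0.025 for PT, −0.23 for p31-43, 0.056 for PT-G against PT), the background-subtracted signal (−0.23 for p31-43) and array weights (0.068 for PT-G against PT). TGM3 for PT-G against PT was 0.051 with median scaling. Without single arrays, A_23_P41241 ran from −0.075 to 0.016 under PT-G and from −0.017 to 0.074 for PT-G against PT, A_24_P402238 from −0.047 to 0.078 under p31-43 and from −0.10 to 0.017 for PT-G against PT, and TGM5 from −0.10 to 0.00037 under PT-G.

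Median scaling moved the median of all probes to −0.11 under PT and −0.08 under p31-43. With the replicate number as a block the short-variant probe under PT-G had a nominal p of 0.0469 (limma) and no transglutaminase call changed; over all probes this block raised the calls from 1408 to 3110 for PT-G. The filter on dim probes leaves out TGM3, TGM4 and TGM5, which have no value there. For these 3 genes the signal at background limits what could be seen.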
